A study of Mus musculus with 58 samples.

Results

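The granular cell layer of the cerebellum (GCL) was compared, in methylation at 382 CpGs, with 10 other regions of the mouse brain. GCL was represented by 6 of the series' 58 arrays, the samples whose tissue label names this layer, coded F1, F2, F4, M1, M3 and M4. Methylation is given as beta, the share of a CpG's signal that is methylated, from 0 to 1, read on a custom Illumina bead array after bisulphite conversion of genomic DNA. GCL was set against the unweighted mean of the other 10 region means, built from 47 samples. These were Purkinje cells (PC, n = 4), dentate gyrus (DG, n = 5), hippocampal field CA3 (n = 4), wild-type frontal cortex (FC_WT, n = 2), basolateral amygdala (BLA, n = 5), caudate-putamen (CPU, n = 6), globus pallidus (GP, n = 5), substantia nigra (SN, n = 6), hypothalamus (HYP, n = 5) and thalamus (TH, n = 5). All were C57BL/6 mice, given as healthy or, for the frontal cortex, as wild type. The titles of some DG samples carry the prefix WT too. The sources used here give neither their ages nor whether a region's samples came from separate animals, and a p-value then measures only how these samples spread.

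The granular layer is packed with granule cells, small glutamatergic neurons that receive mossy fibre input and send parallel fibres to the dendrites of Purkinje cells. The Purkinje cells form a single row of large inhibitory neurons at its edge. Adult granule cells are known for GABA-A receptors that contain the Gabra6 subunit and for NMDA receptors that contain Grin2c. DNA methylation is the addition of a methyl group to cytosine, mostly where a guanine follows. A promoter with low methylation is often, though not always, that of a gene in use. Gene expression was not measured here, and in whole tissue a difference in beta can come from a change within cells or from another mix of cells, which these data cannot tell apart.

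GCL M3 stood apart within its group: it correlated with the other GCL samples at 0.966 to 0.983, while those 5 correlated with one another at 0.981 to 0.997. GP M3 resembled GCL: it correlated with the GCL samples at 0.975 to 0.994, against 0.970 to 0.979 with the other GP samples. Without GP M3 the main comparison gave 87 calls in place of 85. PC F2 and M3 had higher first quartiles of beta than the other PC samples, and without them the count was also 87. The titles of FC_WT and of DG F7 to F9 begin with WT, unlike those of the other samples, DG F3 and M2 among them. Leaving out FC_WT gave 78 calls, and leaving out DG F7 to F9 gave 86. GCL F1 and M3 have a dot in their titles where the other GCL samples have a hyphen. Without both, 83 CpGs were called, of which 76 were among the 85. The title of GP F4 has another prefix than those of the other GP samples.

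RefSeq promoter windows (build GRCm38.p6, from 250 bases before to 50 after the gene's start) were found for the genes of 284 of the 382 CpGs, or 74.3%. They held a median of 16 CG pairs per 300 bases. The 4 windows below are shown because their genes carry the main results. Gabra6 and Grin2c are the granule cell receptor genes called lower in GCL than the mean of the other regions. F2rl2 and Ptger2 are genes called higher than that mean. None of the 4 was called between GCL and PC. Each is written 5′ to 3′ along the gene's strand, with CG pairs in capitals. The sources used here do not place the assayed CpG relative to its window, so the pairs in capitals are candidates only.
Gabra6 (chr11:42321023-42321322, minus strand): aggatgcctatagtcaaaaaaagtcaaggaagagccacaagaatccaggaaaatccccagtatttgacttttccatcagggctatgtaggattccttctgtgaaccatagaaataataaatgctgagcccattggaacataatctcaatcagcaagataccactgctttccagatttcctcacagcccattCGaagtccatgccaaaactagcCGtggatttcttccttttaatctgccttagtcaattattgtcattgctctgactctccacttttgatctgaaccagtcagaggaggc
Grin2c (chr11:115267194-115267493, minus strand): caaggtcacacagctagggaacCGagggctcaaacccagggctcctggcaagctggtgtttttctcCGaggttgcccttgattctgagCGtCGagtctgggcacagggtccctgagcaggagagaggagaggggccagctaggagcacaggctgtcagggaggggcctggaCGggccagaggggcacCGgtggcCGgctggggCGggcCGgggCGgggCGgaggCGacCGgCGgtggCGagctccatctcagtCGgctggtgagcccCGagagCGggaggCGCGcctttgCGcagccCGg
F2rl2 (chr13:95696670-95696969, plus strand): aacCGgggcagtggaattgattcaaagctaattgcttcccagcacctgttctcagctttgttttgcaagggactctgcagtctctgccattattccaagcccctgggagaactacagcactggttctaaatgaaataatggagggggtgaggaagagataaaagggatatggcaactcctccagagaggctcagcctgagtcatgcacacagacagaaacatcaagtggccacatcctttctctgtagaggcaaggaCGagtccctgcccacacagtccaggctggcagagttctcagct
Ptger2 (chr14:44987861-44988160, plus strand): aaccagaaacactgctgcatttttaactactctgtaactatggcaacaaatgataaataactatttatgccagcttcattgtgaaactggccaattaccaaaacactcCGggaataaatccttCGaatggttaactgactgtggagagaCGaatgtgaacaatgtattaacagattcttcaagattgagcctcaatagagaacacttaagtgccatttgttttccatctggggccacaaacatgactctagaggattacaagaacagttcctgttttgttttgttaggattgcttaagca
The Gabra6 and F2rl2 windows held 2 CG pairs each and that of Ptger2 held 3, all below the median, while that of Grin2c held 22.

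GCL differed from the mean of the other regions at 85 CpGs, or 22.3% of those tested (limma, Benjamini-Hochberg adjusted p under 0.05), with 54 lower (14.1%) and 31 higher (8.12%). The lower calls were the wider ones. Their median difference in beta was -0.107, with 28 at 0.1 or more and 8 at 0.2 or more. The higher calls had a median of 0.0752, with 7 at 0.1 or more and 1 at 0.2 or more. At 80 of the 85 CpGs all 6 GCL samples lay on the same side of the mean of the other regions. The calls were chosen by this difference in the same samples, which favours such a count, so it is a description only. The balance of directions depended on scaling: over all CpGs the log2 difference had a median of -0.03, and of 0.05 after quantile normalization, which gave 71 higher and 50 lower calls, and of 0.10 after centring arrays on their medians, which gave 56 and 45. Centring thus moved the median by 0.12. Under these scalings 0 of the 85 calls changed direction, while 8 and 9 were lost.

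Most calls lay at CpGs of intermediate methylation. Where the other regions averaged between 0.2 and 0.8, 27 of 105 CpGs were lower in GCL and 23 were higher. Under 0.2 the counts were 19 lower and 5 higher of 241, and over 0.8 they were 8 lower and 3 higher of 36. GCL held the lowest of the 11 region means at 47 CpGs and the highest at 21. Other regions were extreme more often: FC_WT was lowest at 145 CpGs and SN at 74, and PC was highest at 159 and DG at 42.

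**Figure D1:**
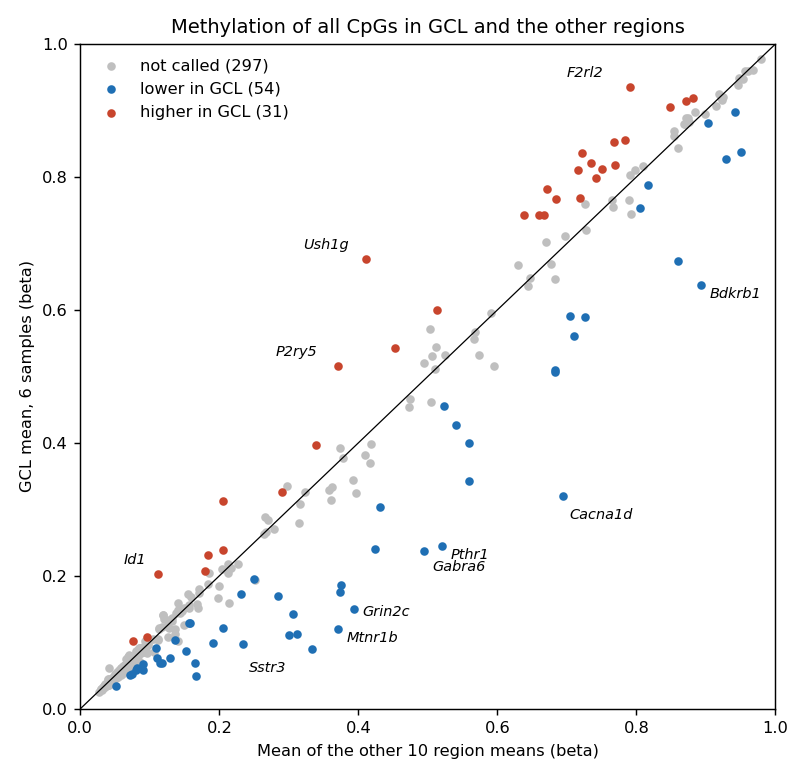
GCL mean beta (6 samples, vertical axis) against the mean of the other 10 region means (horizontal axis) for 382 CpGs. Points on the line are equal in both; the 54 CpGs called lower in GCL lie below it, led by Cacna1d at 0.320 against 0.694, and the 31 called higher lie above it, led by Ush1g at 0.677 against 0.411.

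Of the 10 genes listed as markers of cerebellar granule cells, 3 had a CpG on the array. All 3 were called lower in GCL, against 14.1% of all CpGs, with Reln the least firm. Gabra6, the GABA-A receptor subunit of these cells, had a lowest value of 0.213, a median of 0.237 and a highest value of 0.264 in GCL, against 0.240, 0.526 and 0.632 over the 47 other samples. The GCL values ran up to just inside the range of PC, where the samples were at 0.240, 0.258, 0.265 and 0.349, and did not reach the lowest of the other 43 samples, at 0.354. The means were 0.237 ± 0.0179 in GCL (SD, n = 6) and 0.494 over the other regions, a log2 difference of -1.65 ± 0.13 (SE; limma adjusted p = 1.56e-14).

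Grin2c, the NMDA receptor subunit that granule cells use in the adult, had a lowest value of 0.115, a median of 0.144 and a highest value of 0.195 in GCL, against 0.110, 0.413 and 0.618 in the other samples. PC F4 and F1 were as low as GCL, at 0.110 and 0.115, and PC F2 and M3 were at 0.249 and 0.250. The lowest of the other 43 samples was at 0.255. Grin2c averaged 0.150 ± 0.0310 in GCL (SD, n = 6) and 0.394 over the other regions (log2 difference -1.85 ± 0.17, SE; limma adjusted p = 2.84e-13). Reln, which encodes a secreted protein that guides neuronal layering, was the weakest of the 3, at 0.129 ± 0.0310 in GCL (SD, n = 6) and 0.156 elsewhere (limma adjusted p = 0.0286). Its GCL values spanned 0.102 to 0.170 and overlapped those of each other region. The Reln call was lost without GCL F1, F2, M1 or M4, on untransformed beta and under either other scaling.

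Among the markers of other cell types, Gfap and Gal3st1 were called. The Purkinje cell marker Foxp2, a transcription factor gene, was not called, at 0.0816 in both GCL and the other regions. Among the oligodendrocyte markers, the sulphatide synthesis gene Gal3st1 was called higher, at 0.208 in GCL and 0.180 elsewhere (0.210 in CPU), a call lost without GCL F1, F2, M3 or M4, without FC_WT and with the letter as a covariate. Mbp, Mag, Cnp, Olig2 and Gm98 (now Myrf) were not called. Of the astrocyte markers Gfap was called lower, at 0.507 ± 0.0323 in GCL (SD, n = 6) against 0.683, and the glutamate transporter gene Slc1a3 was not, at 0.218 against 0.212. Gfap was as low in DG, at 0.469 ± 0.133 (SD, n = 5), and in PC, at 0.481. The neuronal growth cone gene Gap43 was not called. Microglial and endothelial markers had 0 CpGs on the array. These are markers of expression, and the part that the mix of cells has in the differences was not tested.

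Peptide hormone receptor genes, the longest list, were lower in GCL at 17 of 60 CpGs (28.3%, against 14.1% of all CpGs), with 3 higher and 40 not called. Their median log2 difference was -0.06, against -0.03 over all CpGs, and it was 0.03 after quantile normalization, with 15 lower and 8 higher calls, and 0.07 with centring, with 14 and 3. The somatostatin receptor gene Sstr3 was at 0.0780 to 0.119 in GCL, with a median of 0.0838, against 0.0876 to 0.478 in the other samples, with a median of 0.369. Its means were 0.0902 ± 0.0154 in GCL (SD, n = 6) and 0.333 elsewhere (log2 difference -2.27 ± 0.16, SE; limma adjusted p = 7.64e-16). Sstr1 was low too, at 0.111 ± 0.0211 (SD, n = 6) against 0.301, whereas Sstr2, Sstr4 and Sstr5 were not called.

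Both bradykinin receptor genes were lower in GCL, from different levels. Bdkrb1 averaged 0.637 ± 0.0529 in GCL (SD, n = 6) and 0.894 elsewhere, and Bdkrb2 averaged 0.186 ± 0.0312 (SD, n = 6) and 0.374. The parathyroid hormone receptor gene Pthr1 (now Pth1r) had a lowest value of 0.201, a median of 0.243 and a highest value of 0.291 in GCL, against 0.204, 0.569 and 0.665 in the other samples. Its relative Pthr2 was not called. Npy6r, a neuropeptide Y receptor gene, averaged 0.175 against 0.374, the calcitonin receptor gene Calcr 0.0977 against 0.234, and the neuromedin U receptor gene Nmur2 0.143 against 0.306. The 3 members that were higher were the vasopressin receptor gene Avpr1b, at 0.767 against 0.684, the galanin receptor gene Galr1, at 0.103 against 0.0756, and the tachykinin receptor gene Tacr2, at 0.919 against 0.882.

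Outside these lists, the melatonin receptor gene Mtnr1b had one of the clearest separations from the regions other than PC. Its GCL samples spanned 0.0989 to 0.154, with a median of 0.114, and the other samples 0.0908 to 0.510, with a median of 0.394. The PC samples, at 0.0908 to 0.172, took in the GCL range, and the lowest of the other 43 samples was at 0.174. Mtnr1b averaged 0.120 ± 0.0208 in GCL (SD, n = 6) and 0.371 elsewhere (log2 difference -2.07 ± 0.15, SE; limma adjusted p = 7.80e-16). Lep, the gene of the fat cell hormone leptin, averaged 0.838 ± 0.0396 in GCL (SD, n = 6), a difference in beta of -0.112 from the nearly fully methylated mean of the other regions. PC was at 0.837.

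Ion channel genes were lower at 7 of 17 CpGs (41.2%, against 14.1% of all CpGs) and higher at 1, with 9 not called. Their median log2 difference was -0.07. It was -0.04 after quantile normalization, with 6 lower and 4 higher calls, and 0.05 with centring, with 5 and 2. Cacna1d, the pore subunit of an L-type calcium channel, had the widest difference in beta of all 382 CpGs. It had a lowest value of 0.254, a median of 0.317 and a highest value of 0.404 in GCL, against 0.271, 0.767 and 0.845 in the other samples. It averaged 0.320 ± 0.0550 in GCL (SD, n = 6) and 0.694 elsewhere (log2 difference -2.38 ± 0.18, SE; limma adjusted p = 1.75e-15). PC was near GCL, at 0.375.

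The other lower members of this list ran from nearly unmethylated to nearly fully methylated CpGs. Kcnip1, whose protein binds and modulates A-type potassium channels, averaged 0.0494 ± 0.0115 in GCL (SD, n = 6) and 0.166 elsewhere, and the A-type channel gene Kcnd2 averaged 0.103 and 0.136, a call lost under either other scaling. Of the ATP-gated channel genes, P2rx1 was at 0.589 and 0.726, P2rx5 at 0.881 and 0.903 (not called without GCL F1, M1 or M3, without DG F7 to F9 or with centring), and P2rx6 at 0.0990 and 0.190, while P2rx2, P2rx4 and P2rx7 were not called. The nicotinic receptor genes Chrna9 and Chrna10, whose subunits are known from the efferent synapse of hair cells, moved in opposite directions: Chrna9 was lower in GCL, at 0.827 against 0.929, and Chrna10 was higher, at 0.397 against 0.339.

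Of 26 glutamate receptor and transporter CpGs, 2 were lower, Grin2c among them, and 1 was higher, Grm2 (11.5% called, against 22.3% of all CpGs). After quantile normalization 2 were lower and 5 higher, and with centring 2 and 4. Grm2, a metabotropic receptor gene, was at 0.231 in GCL against 0.184 over the other regions, of which CPU was above GCL, at 0.350. Grin1, Grin2a, Grin2b and Grin2d were not called, so that Grin2c was the only NMDA receptor subunit gene called, without a test of it against the others. Of 22 GABA and glycine CpGs, Gabra6, Gabrp and Glra3 were lower and Gabra2 and Gabrr1 were higher (22.7% called, near the share over all CpGs). The other scalings gave 2 lower and 3 higher (quantile) and 3 of each (centring). The call of Gabra2 was lost without GCL M3 or M4, without FC_WT and with the letter as a covariate, and that of Glra3 after quantile normalization. Gabrd, whose subunit joins that of Gabra6 in granule cell receptors, was not called.

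Monoamine genes gave 3 higher and 2 lower calls of 29 (17.2% called, against 22.3% of all CpGs), with 10 and 2 after quantile normalization and 8 and 2 with centring. The histamine receptor genes Hrh1, at 0.599 ± 0.0414 in GCL (SD, n = 6) against 0.513 (but 0.626 in DG), and Hrh4, at 0.852 ± 0.0196 (SD, n = 6) against 0.768, were higher. So was Adra1b, an adrenergic receptor gene, at 0.914 against 0.871, though not without GCL F2 or F4, without FC_WT or with the letter as a covariate. The dopamine receptor gene Drd4 was lower, at 0.0610 against 0.0821, a call lost without GCL M1 and on untransformed beta. Htr4, a serotonin receptor gene, was lower as well, at 0.0677 against 0.0906. Of 15 muscarinic, adenosine and P2Y receptor CpGs 1 was called (6.67%, against 22.3% of all CpGs), P2ry5, which is now Lpar6 and codes for a lysophosphatidic acid receptor. This list gave 3 higher and 1 lower call after quantile normalization and 2 higher with centring.

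Receptor genes for proteases and lipid mediators gave 7 higher (29.2%, against 8.12% of all CpGs) and 5 lower calls (20.8%, against 14.1%) of 24 CpGs, with 12 not called. F2rl2, a protease-activated receptor gene, had a lowest value of 0.916, a median of 0.937 and a highest value of 0.952 in GCL, against 0.518, 0.838 and 0.938 in the other samples. It averaged 0.936 ± 0.0129 in GCL (SD, n = 6) and 0.790 elsewhere (log2 difference 1.77 ± 0.19, SE; limma adjusted p = 3.36e-11). F2rl3 of the same family was higher too, at 0.812 against 0.751 (not called without GCL F2, F4 or M1, without FC_WT or with the letter as a covariate), while the thrombin receptor gene F2r was lower, at 0.304 against 0.431, and F2rl1 was not called. The prostaglandin E receptor gene Ptger2 averaged 0.313 ± 0.0280 in GCL (SD, n = 6) and 0.206 elsewhere, and Ptger3 and Ptger4 were not called. P2ry5 averaged 0.515 ± 0.0425 (SD, n = 6) and 0.371. The cannabinoid receptor gene Cnr2, at 0.343 against 0.560, and the thromboxane receptor gene Tbxa2r, at 0.509 against 0.682, were lower, and Cnr1, the main cannabinoid receptor gene of the brain, was not called. At Tbxa2r DG was lower still, at 0.463.

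Of 6 genes known from the inner ear's hair cells, 1 was higher and 1 lower (33.3% called, against 22.3% of all CpGs). Ush1g, a scaffold protein gene, had a lowest value of 0.616, a median of 0.684 and a highest value of 0.715 in GCL, against 0.181, 0.404 and 0.716 in the other samples. It averaged 0.677 ± 0.0343 in GCL (SD, n = 6) and 0.411 elsewhere (log2 difference 1.62 ± 0.13, SE; limma adjusted p = 2.05e-14). PC was near GCL, at 0.687. Ush1c, whose protein binds that of Ush1g, was lower, at 0.673 ± 0.0341 in GCL (SD, n = 6) against 0.860. Myo7a, Pcdh15, Cdh23 and Whrn were not called. Of inner ear genes outside this list, Tmhs (now Lhfpl5) was higher, at 0.782 against 0.671, as was the otogelin gene Otog, at 0.543 against 0.452, and the stereocilin gene Strc was not called, at 0.977 against 0.979.

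Of 5 patterning genes Tbx1, a T-box factor gene, was lower, at 0.113 ± 0.0165 in GCL (SD, n = 6) against 0.312, and Pax3, Sox2, Foxp2 and Nkx6-2 were not called (20% called, near the 22.3% of all CpGs). Id1 and Id3, whose proteins hold back basic helix-loop-helix factors, moved in opposite directions: Id1 averaged 0.203 ± 0.0147 (SD, n = 6) in GCL and 0.112 elsewhere, and Id3 averaged 0.0684 and 0.114. The cytoskeletal genes Sorbs3, at 0.240 against 0.424, and Spnb4 (now Sptbn4, a spectrin of the axon initial segment), at 0.811 against 0.716, likewise went opposite ways. At Spnb4 SN was near GCL, at 0.806, and FC_WT was at 0.549. The only connexin gene, Gje1, was higher, at 0.836 against 0.722 (but 0.816 in DG). Of the amyloid and tau genes Ide was higher, at 0.743 against 0.638 (0.722 in HYP and 0.372 in FC_WT). Mme, Cdk5 and Cdk5r1 were not called. The neurotrophin and stress genes (Bdnf, Ngfr and Nr3c1 at more than 1 CpG) gave 0 of 4 and the cAMP genes (Adcy9 and Adcyap1r1) gave 0 of 2. With 22.3% of all CpGs called, lists as short as those in this paragraph say little about a family.

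**Figure D2:**
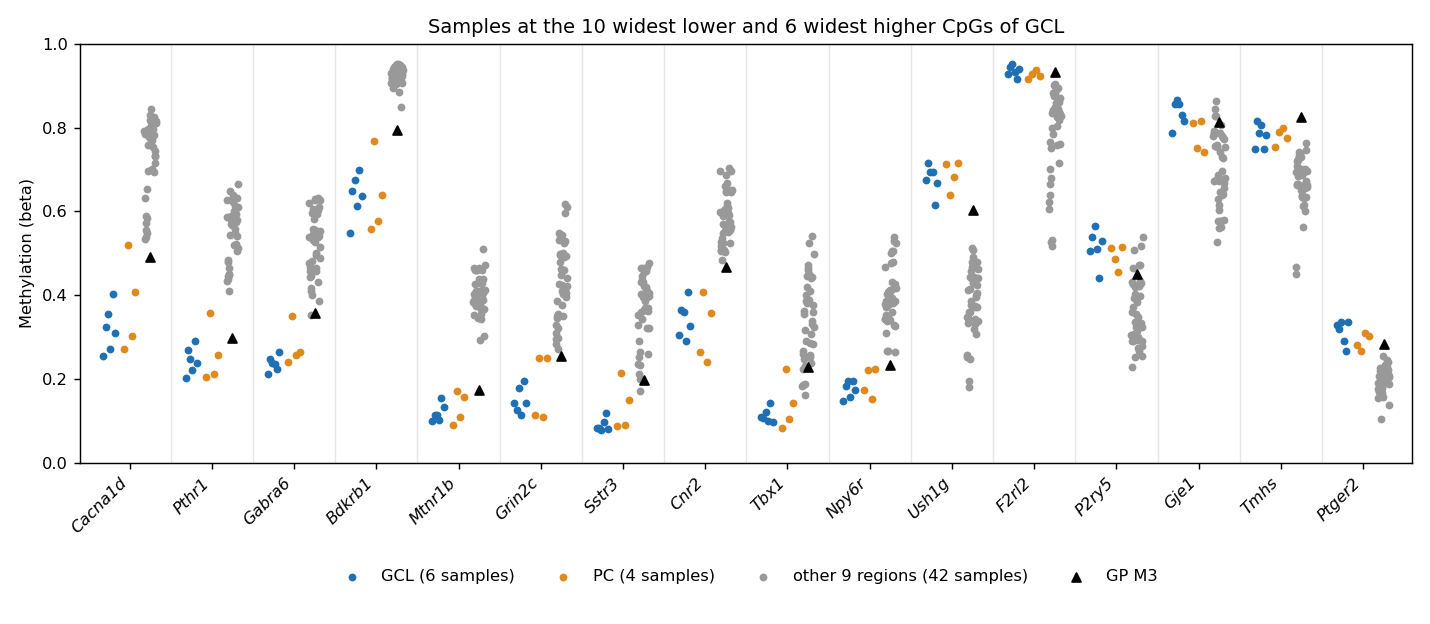
Beta of each sample (vertical axis) at the 10 CpGs with the widest lower and the 6 with the widest higher difference in GCL, by gene (horizontal axis). GCL samples lie beside those of PC and apart from most of the other 9 regions, and GP M3 (triangle) is the nearest of those to GCL at Cacna1d (0.491), Pthr1 (0.297), Mtnr1b (0.174) and Ush1g (0.602).

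The region most like GCL was PC, the other cerebellar label. The region means of GCL and PC correlated across CpGs at 0.998, the highest of the 10 regions, and the next were CA3 at 0.982 and GP at 0.980. The mean absolute difference in beta was 0.0173 from PC and 0.0276 to 0.0525 from the other regions. Of the 54 CpGs lower in GCL, PC was the lowest of the other regions at 34, and of the 31 higher ones PC was the highest at 21. Since all regions are compared with the same GCL samples, these counts share them.

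GCL minus PC gave 0 calls by limma (0.0%). At an unadjusted p under 0.05 there were 95 CpGs, of which 93 were lower in GCL. The smallest adjusted p, 0.0587, was shared by Drd4, Gabrb1, Pou3f2, Grik4 and 5730403B10Rik. Drd4 was at 0.0610 ± 0.00920 in GCL (SD, n = 6) and 0.108 ± 0.0574 in PC (SD, n = 4), and Gabrb1, a GABA-A receptor subunit gene, at 0.125 ± 0.0221 and 0.183 ± 0.0366. At Drd4 PC F1 and F4, at 0.0690 and 0.0627, lay within the GCL range of 0.0509 to 0.0728, and PC F2 and M3 were at 0.111 and 0.187. At Gabrb1 PC F4, at 0.134, lay within the GCL range, and PC F1, F2 and M3 were at 0.176, 0.207 and 0.214. Differences were small in beta: the median absolute difference was 0.0140, and 1 CpG, the X-linked Gabrq, passed 0.1, with GCL at 0.454 and PC at 0.326. At Gabrq, PC F1, F2 and F4 were at 0.177, 0.227 and 0.182, and GCL F1, F2 and F4 at 0.227, 0.174 and 0.180. PC M3, the only M-coded PC sample, was at 0.716, and GCL M1, M3 and M4 were at 0.703, 0.708 and 0.734. Samples of the same letter were thus alike in the 2 layers, and the means mix the letters in unlike shares. GCL was below PC at 280 of 382 CpGs, with a median log2 difference of -0.20. GCL samples had first quartiles of beta of up to 0.0663, while PC F2 and M3 reached up to 0.0995, above the other PC samples, and their part in this shift was not tested. With both left out, and with quantile normalization or centring, the count stayed at 0. It was 31 on untransformed beta and 53 with beta limited to between 0.05 and 0.95, all lower in GCL. Leaving out 1 sample gave 75 for PC F4, 49 for PC F1, 9 for DG F9, 7 for HYP M1, 5 each for GCL M3 and HYP F2, and 1 for GCL F2.

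At the leading genes the intervals of the GCL minus PC difference show what these samples could tell. The log2 difference of Gabra6 was -0.30 with a 95% interval of -0.70 to 0.10, that of Grin2c was -0.24 with an interval of -0.73 to 0.25, and that of Cacna1d was -0.34 with an interval of -0.87 to 0.19. For Ush1g it was -0.07 with an interval of -0.47 to 0.33. These intervals leave room for a difference between the layers, but not for one as wide as that between GCL and the mean of the other regions. The GCL and PC means of Sstr3 were 0.0902 and 0.136, and its unadjusted interval, -1.06 to -0.10, lay below 0 (limma adjusted p = 0.143).

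DG, whose granule cells are also small glutamatergic neurons packed in a layer, was less like GCL than PC was. The correlation of region means was 0.975, and 91 CpGs differed (23.8%; limma), with 47 lower in GCL (12.3%) and 44 higher (11.5%). Quantile normalization gave 58 lower and 83 higher, and centring 41 and 70. The 5 CpGs with the smallest p were Ush1g, F2rl2, Lep, Mtnr1b and Id1. Ush1g averaged 0.677 ± 0.0343 in GCL (SD, n = 6), and the DG samples were at 0.412 in F3, 0.359 in M2, 0.181 in F7, 0.194 in F8 and 0.247 in F9. F2rl2 averaged 0.936 ± 0.0129 in GCL (SD, n = 6), and the DG samples were at 0.751, 0.679, 0.527, 0.518 and 0.532 in the same order. At both genes every GCL sample lay above every DG sample, and F7 to F9 were farther from GCL than F3 and M2.

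The granule cell receptor genes separated the layers as well. Gabra6 was at 0.237 ± 0.0179 in GCL (SD, n = 6), against 0.446, 0.416, 0.354, 0.409 and 0.400 in the DG samples F3, M2, F7, F8 and F9 (log2 difference -1.13 ± 0.19, SE; limma adjusted p = 3.14e-06). Mtnr1b was at 0.120 ± 0.0208 in GCL (SD, n = 6), against 0.379, 0.460, 0.375, 0.410 and 0.390 in the same DG samples. Gfap had no such gap, at 0.507 in GCL and 0.469 in DG, with DG values from 0.313 to 0.615. The count depended on the DG samples: without F7, F8 and F9 it was 53 (39 lower in GCL, 14 higher), and without F3 and M2 it was 141 (73 and 68).

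Against the other 8 regions singly, all of which share the GCL samples, lower calls outnumbered higher ones in each but FC_WT. GCL differed from CA3 at 49 CpGs (12.8%), 33 lower (8.64%) and 16 higher (4.19%). The difference from GP comprised 61 CpGs (16.0%), with 49 lower in GCL (12.8%) and 12 higher (3.14%), and that from HYP 66 (17.3%), with 51 lower (13.4%) and 15 higher (3.93%). BLA gave 70 (18.3%), 52 of them lower in GCL (13.6%) and 18 higher (4.71%), and CPU as many, 70 (18.3%), with 47 lower (12.3%) and 23 higher (6.02%). TH, the relay to the cortex, gave 80 (20.9%), 57 lower in GCL (14.9%) and 23 higher (6.02%), and SN, which holds dopaminergic neurons, 81 (21.2%), 61 lower (16.0%) and 20 higher (5.24%). The widest count, 121 (31.7%), was that of FC_WT, a group of 2 samples, with 33 lower in GCL (8.64%) and 88 higher (23.0%) and a median log2 difference of 0.12 over all CpGs. Titles that begin with WT are found only in FC_WT and DG F7 to F9, so for FC_WT the region and the title set cannot be told apart.

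**Figure D3:**
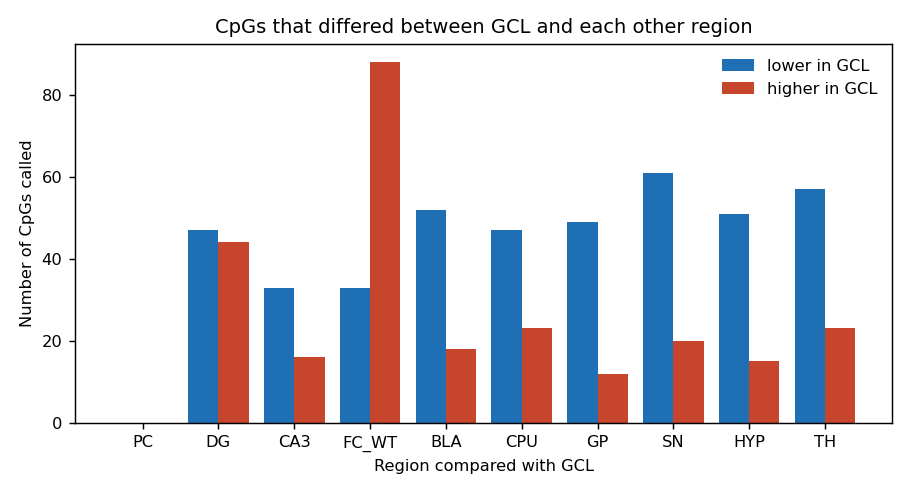
Number of the 382 CpGs called (vertical axis) between GCL and each other region (horizontal axis), with those lower and those higher in GCL as separate bars. PC gave 0 of either, and FC_WT, where region and WT titles cannot be told apart, was the region with more higher (88) than lower (33) calls.

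No CpG passed against all 10 regions, since none passed against PC (0 CpGs, 0.0%; 1 without PC F1 or PC F4). Against each of the other 9 regions 21 CpGs did, 17 of them lower in GCL (4.45%) and 4 higher (1.05%). The lower ones were Bdkrb1, Bdkrb2, Cacna1d, Chrna9, Cnr2, Gabra6, Glp1r, Glp2r, Grin2c, Kcnip1, Lep, Mtnr1b, Npy6r, P2rx1, Pthr1, Sstr3 and Ush1c, and the higher ones F2rl2, Id1, Ptger2 and Ush1g. Of the 17, 7 belong to the peptide hormone receptors, a list that holds 15.7% of all CpGs, and 4 to the ion channels, which hold 4.45%. The incretin receptor gene Glp1r was at 0.170 in GCL against region means of 0.246 to 0.349, and its relative Glp2r was at 0.897 against 0.939 to 0.958.

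At 0 CpGs did all 6 GCL samples lie outside the range of all 47 others. With PC set aside, all 6 lay below all 43 samples of the other 9 regions at 15 CpGs (3.93%) and above them at 1 (0.262%), Ush1g, at 0.616 to 0.715 in GCL and 0.181 to 0.602 in the others. Mtnr1b was at 0.0989 to 0.154 in GCL and at 0.174 to 0.510 in those regions, and its lowest sample was GP M3. GP M3 was the lowest of the 43 at Cacna1d, Pthr1, Bdkrb1, Grin2c, Cnr2, Npy6r, Chrna9, P2rx1 and Ush1c too, and the highest at Ush1g, F2rl2 and Ptger2. Without PC and GP M3 the counts were 17 below and 3 above.

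**Figure D4:**
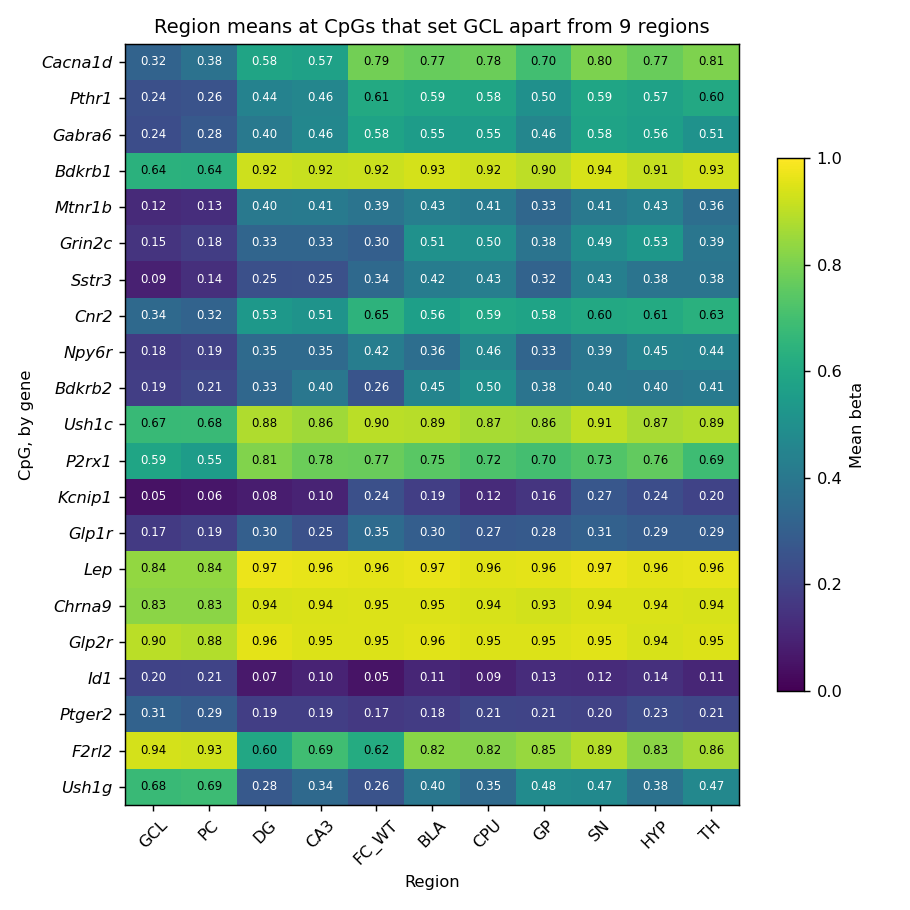
Region means of beta (colour and printed value) at the 21 CpGs that differed between GCL and each of 9 regions, by gene (rows) and region (columns). The GCL and PC columns are alike, such as 0.24 and 0.28 at Gabra6, and the other 9 columns differ from both, from 0.40 to 0.58 at Gabra6.

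The pattern of Gabra6 over the 11 region means was shared most closely by Pthr1 (Pearson r = 0.977), Cacna1d (0.969), Sstr3 (0.952), Lhb (0.937) and Cnr2 (0.934), as a description over 11 points that share the same samples. In Gabra6 the order from low to high began with GCL at 0.237 and PC at 0.278, which did not differ by the test, then DG at 0.405, GP at 0.460, CA3 at 0.462 and TH at 0.509. It ended with BLA and CPU at 0.552, HYP at 0.564 and SN and FC_WT at 0.580, neighbours not tested against one another. Pthr1 began with GCL at 0.245 and PC at 0.257, followed by DG at 0.444 and CA3 at 0.459, and ended with FC_WT at 0.607. Cacna1d, too, had CA3, at 0.573, and DG, at 0.583, next above GCL at 0.320 and PC at 0.375. Lhb, the beta subunit gene of luteinizing hormone, had PC lowest at 0.566, then GCL at 0.590.

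Among the 6 GCL samples, the code letter went with methylation on the X chromosome. F-coded minus M-coded GCL samples gave 11 calls (2.88%; limma, adjusted over all 382 CpGs), all lower in the F-coded samples and all among the 17 X-linked CpGs. At 13 of the 17 all 3 F-coded values lay below all 3 M-coded ones, and at P2ry10 they lay above. Of the 365 autosomal CpGs 0 were called by limma, and 5 had an unadjusted p under 0.05. The labels do not say what the letters stand for. As background, CG-rich promoters on the inactive X chromosome of female mammals are typically methylated. If F and M marked females and males, the lower values of F-coded samples would run opposite to that, and whether the letters mark sex was not tested.

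Gabrq, a GABA-A receptor subunit gene, was at 0.227, 0.174 and 0.180 in F1, F2 and F4, against 0.703, 0.708 and 0.734 in M1, M3 and M4 (log2 difference -3.39 ± 0.38, SE; limma adjusted p = 2.62e-08). The neighbouring family member Gabre averaged 0.0430 in F-coded and 0.276 in M-coded GCL samples, and the ubiquitin ligase gene Pja1 averaged 0.0992 and 0.324. L1cam, a cell adhesion gene, was at 0.144 and 0.484, the glycine receptor gene Glra2 at 0.197 and 0.453, and Pou3f4, a POU factor gene, at 0.0705 and 0.291. None of these F-coded and M-coded values overlapped. Further calls included Gpr50, Pcdh11x, Cysltr1 and Htr2c, with differences in beta from -0.227 at Htr2c to -0.0686 at Pcdh11x. The F minus M difference in GCL was not shown to differ from that in the other regions: the interaction gave 0 calls by limma (0.0%), 10 CpGs had an unadjusted p under 0.05 and the smallest adjusted p was 0.984. Those regions included DG with all its samples, of which F7 to F9 did not follow the letter at Gabrq and L1cam. At Gabrq they were at 0.571, 0.626 and 0.640, with DG F3 at 0.212 and DG M2 at 0.785. At L1cam they were at 0.459, 0.464 and 0.454, with DG F3 at 0.165 and DG M2 at 0.589. Cysltr1 was the only X-linked CpG among the 85 calls between GCL and the mean of the other regions, and with the letter as a covariate the count was 81, of which 77 were among the 85.

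**Figure D5:**
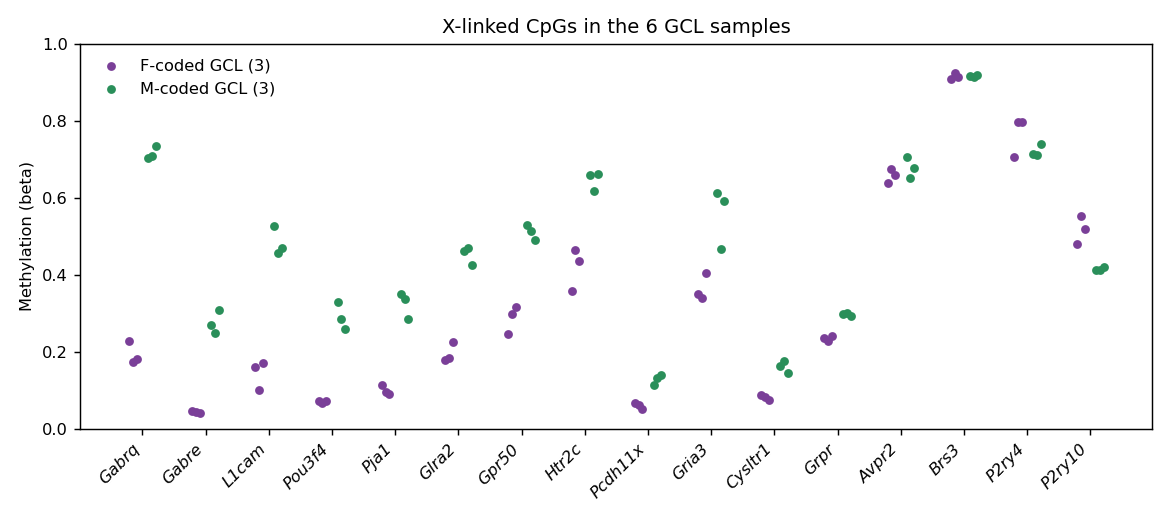
Beta (vertical axis) of the 3 F-coded and the 3 M-coded GCL samples at 16 of the 17 X-linked CpGs, by gene (horizontal axis), ordered by the F minus M difference. F-coded values lie below M-coded ones at 12 of these CpGs, widest at Gabrq (0.194 against 0.715 on average), and above them at P2ry10 (0.517 against 0.415).

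The remaining spread among the GCL samples was mainly that of M3. It was the highest GCL sample at 153 CpGs and M1 at 17, the fewest. At Kiss1r, the kisspeptin receptor gene, M3 was at 0.562 and the other 5 spanned 0.0649 to 0.183, and at the adenylate cyclase gene Adcy9 it was at 0.533 and the others at 0.111 to 0.191. Sctr, the secretin receptor gene, and Gria1, an AMPA receptor subunit gene, both chosen after their values were seen, were high in M3 as well, at 0.674 and 0.510, with the next GCL sample at 0.210 and 0.215. High values at these 4 CpGs were found together in samples of other regions too: CA3 M1, DG F7, DG F9, TH M3, PC F2, CPU F4 and HYP F4 were above 0.3 at all 4. None of the 4 was called between GCL and the other regions.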

How the data were processed

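Per the labels' protocols, DNA extracted with phenol was treated with bisulphite and read in both dyes on a custom GoldenGate array. As deposited, the table holds a beta value (a fraction from 0 to 1) per CpG for 382 CpGs on 58 arrays, with 0 missing. The sources used here give neither its normalization, its filters and its genome build nor what the number in a CpG's name means. Depth per value (beads, signal over background) was not used here, and the number of arrays limits the precision.

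Of the gene names, 362 matched a RefSeq symbol (GRCm38.p6) and 20 a synonym. CPU M4_a and M4_b were averaged as 1 sample. Beta was limited to between 0.01 and 0.99 and log2(beta / (1 - beta)) fitted with limma 3.58.1 in R 4.3.3 (lmFit, eBayes) over 53 samples of 11 regions, with Benjamini-Hochberg adjustment over all 382 CpGs at 0.05. F minus M was fitted over the regions with both letters. The fits were also run on simulated data of independent noise with changes added in GCL. Those data held no outlying samples and no other differences between regions, so they cannot show how the fits handle these.

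Replicate codes recur across regions. Deviations of same-code samples from their region means correlated at -0.649 to 0.827 over autosomal CpGs (median 0.0238, 16 of 39 pairs over 0.1), so the codes were not taken as pairing samples.

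The regions, members and lists were chosen with earlier results of these data known. Named genes were the 15 lower and 10 higher calls widest in beta, the 5 of smallest p against PC, against DG and between code letters, 4 per list by size of difference, every cell type marker and the 5 patterns most like Gabra6. Other list members are named by their call, and a few genes the rule names are not reported here. Tbxa2r was kept out of the patterning list, whose Tbx pattern took it in. Alternatives were other scales, limits, scalings, filters, variances and blocks, either CPU M4 array alone, and fits without FC_WT, sets of samples or each sample in turn. Python 3.11.15, numpy 2.4.6, pandas 2.3.3 and matplotlib 3.10.9 were used for summaries and figures.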

Additional observations from a re-analysis of the deposited data

Results flagged for a closer look

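At 11 of 82 named CpGs 1 GCL sample lay apart from the other 5 by Dixon's criterion (a gap above 0.625 of the group's range, which chance gives in about 1 in 20 groups). Of these, 8 were GCL M3 and 3 GCL F2, always as the highest sample. Over all 382 CpGs there were 34 such cases, 24 of them GCL M3. Part of the 82 was named by p-values from these same samples, such as Kiss1r, Adora2b and Gabbr2 by a comparison of code letters. A single high sample can sway such a p-value, so the share among the 82 is a description only.

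GCL M3 was at 0.562 at Kiss1r, with the others at 0.0649 to 0.183, at 0.533 at Adcy9, with the others at 0.111 to 0.191, at 0.330 at Gabbr2, with the others at 0.0445 to 0.0860, and at 0.257 at Adora2b, with the others at 0.0327 to 0.0593. The gaps were narrower at Bdkrb2, where M3 was at 0.246 and the others at 0.164 to 0.190, at Pou3f2, where it was at 0.172 and the others at 0.117 to 0.132, at Kcnip1, where it was at 0.0717 and the others at 0.0394 to 0.0494, and at Nkx6-2, where it was at 0.930 and the others at 0.873 to 0.889.

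GCL F2 was at 0.874 at Spnb4, with the others at 0.778 to 0.808, at 0.168 at Gabrb1, with the others at 0.111 to 0.128, and at 0.109 at Cnp, with the others at 0.0793 to 0.0888. Of the 11 genes, Bdkrb2, Kcnip1 and Spnb4 are among the 85 calls between GCL and the other regions, and these 3 were called without the sample concerned as well.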

How the results depend on the processing

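The count of 85 CpGs between GCL and the mean of the other regions lay between 77 and 92 with 1 sample left out, and was 79 when the replicate code was a fixed block (53 lower, 26 higher) and 84 when it was a random block. The fixed block lost the calls of Grm2, Drd4, Reln, P2rx5, Gabra2, Adra1b, F2rl3 and Gal3st1 among the genes named. Requiring a difference of at least 0.1 or 0.2 in beta left 35 and 9. Of the 85 calls, 62 were kept under each of the 74 settings tried, 23 were lost under 1 or more and 0 changed direction. GCL minus PC, with 0 calls, gave 31 on untransformed beta and 53 with beta limited to between 0.05 and 0.95, and 0 to 75 with 1 sample left out. GCL minus DG, with 91, gave 141 after quantile normalization, 53 without DG F7, F8 and F9, 141 without DG F3 and M2 (chosen after seeing the data) and 68 to 112 with 1 sample left out. The fixed block was fitted without FC_WT and DG F7 to F9, whose codes no other region shares, and among the DG samples it then rested on F3, since M2 is a code of DG alone. It gave 6 for GCL minus DG, where the random block gave 91. Pairing by code was not assumed, and the causes of the other changes were not tested. The 11 calls of F-coded minus M-coded GCL samples were 10 to 12 with 1 sample left out, 11 with the code as a random block and 0 without X-linked CpGs, where they all lie. The code holds the letter, so a fixed block could not be fitted there. CpGs apart from each region numbered 0, 0 to 1 with 1 sample left out, 23 without PC and 24 without PC and GP M3. CpGs at which no GCL sample overlapped another region's numbered 0, 16 without PC and 20 without PC and GP M3. Leaving out PC, its samples F2 and M3, or GP M3 was chosen after seeing the data. With 6 GCL and 2 to 6 other samples a region, small differences between single regions stay below what these arrays can show.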
